A study of Homo sapiens with 4 samples.

Results

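The transcripts described here are those of 10 genes that decide when a cell may start mitosis: the inhibitory kinases WEE1 and PKMYT1, the CDC25A, CDC25B and CDC25C phosphatases, the checkpoint kinases ATR, ATM, CHEK1 and CHEK2, and the mitotic kinase PLK1. They were taken by name, by a rule that uses no measured value but was set with earlier results of these data known, and found in the table by Ensembl identifier. All 10 were among its 58037 rows, and all 10 passed the filter on low counts, as did 15718 genes in all. The cells were OCI-AML3, a human acute myeloid leukemia (AML) line in long use that carries heterozygous NPM1 and DNMT3A mutations and a homozygous NRAS mutation. There were 2 sgNeg libraries, from cells transfected with a control guide RNA, and 2 sgNPM1A libraries, from cells transfected with a guide against the mutant NPM1 allele (mtNPM1 KO). All cells were harvested on day 3, which the protocol gives as 72 hours after transfection. Both groups carry the DNMT3A and NRAS mutations, the guide is not aimed at the wild-type NPM1 allele, and no selection of edited clones is described, so each library averages a transfected population of a single cell line. The comparison asks what loss of mtNPM1 does to the level of these transcripts. It is of interest here because an inhibitor of WEE1 was among the drugs the study followed. The study found that drug by querying a collection of drug signatures with the RNA changes of this same knockout.

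WEE1 and PKMYT1 add inhibitory phosphates to CDK1, the kinase that drives mitosis, and the CDC25 phosphatases remove them. ATR, which responds to stalled replication and single-stranded DNA, activates CHEK1, and ATM, which responds to double-strand breaks, activates CHEK2. Active checkpoint kinases restrain the CDC25 phosphatases and so keep CDK1 off, whereas PLK1 promotes the destruction of WEE1 and activates CDC25C. Much of this circuit is run by phosphorylation and protein turnover, which RNA levels do not report.

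Several of these genes are transcribed mainly in particular phases of the cell cycle, and short elements near their start sites are known to take part in this. The 120 bases before an annotated start are shown for CDC25A, CDC25C and PLK1, the genes in which an E2F site or a CHR (cell cycle genes homology region) element was found together with a CCAAT box within that distance of the same start. The sequences are from RefSeq on GRCh38.p14, 5′ to 3′ on the strand of the gene, and capitals mark matches to these elements on either strand, so that CCAAT on the other strand reads ATTGG.
CDC25A, chr3:48188418-48188537, minus strand: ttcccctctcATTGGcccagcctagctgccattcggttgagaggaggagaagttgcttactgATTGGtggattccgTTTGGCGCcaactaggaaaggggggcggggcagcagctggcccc
CDC25C, chr5:138331805-138331924, minus strand: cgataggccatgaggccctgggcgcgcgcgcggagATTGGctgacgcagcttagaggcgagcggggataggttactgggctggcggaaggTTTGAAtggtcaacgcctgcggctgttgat
PLK1, chr16:23678769-23678888, plus strand: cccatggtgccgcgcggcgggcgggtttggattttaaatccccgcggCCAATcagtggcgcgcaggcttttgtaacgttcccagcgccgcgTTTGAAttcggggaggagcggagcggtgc

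In CDC25A the E2F site lay from -44 to -37, counted from the start. The CHR lay from -30 to -25 in CDC25C and from -29 to -24 in PLK1, and in both a CCAAT box stood farther from the start, at -85 to -81 in CDC25C and at -73 to -69 in PLK1. ATM also held a CHR, from -20 to -15 of its first annotated start. Over windows of 250 bases before to 50 bases after each annotated start, both strands, the CHR (TTTGAA) was found in 3 of the 8 genes that had a window, which WEE1 and PKMYT1 did not have, and in 18.2% of the 27305 genes with one. An E2F site (TTTCCCGC, TTTCGCGC, TTTGCCGC or TTTGGCGC) was found in CDC25A alone of the 8 and in 3.99% of all genes. A CCAAT box (CCAAT) was found in 7 of the 8, with ATR as the exception, and in 39.7% of all genes. The E-box CACGTG was found in PLK1 alone of the 8 and in 8.77% of all genes. A gene was counted where any of its windows held the element, so genes with several windows, as CDC25B, CDC25C, CHEK1 and ATM, had more chances. Of all 35116 windows, 15.2% held the CHR, 3.31% an E2F site, 34.6% a CCAAT box and 7.26% the E-box. These matches describe the letters of the windows and were not tested against the RNA.

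The libraries held between 25069484 and 28276391 counts, and 3 counts corresponded to 0.108 to 0.118 CPM (counts scaled to library size, here with edgeR's TMM factors). NPM1 itself, whose count sums the mutant and the wild-type allele, was at 1319 and 1385 CPM with sgNeg and at 1189 and 1132 CPM with sgNPM1A, which gave a log2 fold change (log2FC, here always sgNPM1A against sgNeg) of -0.22 (standard error, SE, 0.07; adjusted p = 0.0360 in edgeR's quasi-likelihood F test). A gene was called at adjusted p under 0.05 where its log2FC was beyond 0.32, a rise of 25% or a fall of 20%, and NPM1 missed the second condition. Its adjusted p with sgNeg replicate 2, sgNPM1A replicate 1 or sgNPM1A replicate 2 left out was 0.0746, 0.203 and 0.430. With limma-trend on quantile-normalized log2 CPM its log2FC was -0.42 (adjusted p = 0.00108), past both conditions. All 9 myeloid markers examined were detected in every library. Their summed level was 1273 and 1276 CPM in the sgNeg libraries and 4071 and 4792 CPM in the sgNPM1A libraries. Most of this difference was LYZ, and without it the other 8 summed to 1003 and 1061 CPM with sgNeg and to 1429 and 1424 CPM with sgNPM1A. Of the 9 markers, 6 were called higher and 0 lower (0 also at an unadjusted p under 0.05, edgeR), and the part of this shift in the results that follow was not tested. Of 10 markers of other cell types 9 were found, with a summed level of 1.29 to 2.12 CPM, and CD3D, CD3E, MS4A1, HBB and EPCAM had 0 counts in every library, which allows a level of up to 0.118 CPM, counting error only.

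Of the 10 genes, WEE1 was called lower with mtNPM1 KO and 0 were called higher, by edgeR and likewise by DESeq2 and limma-trend. At an unadjusted p under 0.05 (edgeR), 2 were lower, WEE1 and PKMYT1, and 1, ATM, was higher. The share of all tested genes at that cutoff was not computed, so no excess is read from these counts. Of all tested genes, 10.3% were called lower and 10.5% higher by the same rule, so that 1 of 10 lower is close to the share in the whole table. Without the fold threshold 2 of the 10, WEE1 and PKMYT1, were lower, where 13.1% of all tested genes were. The libraries of the groups did not overlap in 7 of the 10, and in 63.1% of all tested genes. The median log2FC was -0.03 over the 10 genes and 0.00 over all tested genes. Of the 10, 3 were above 0 and 7 below, where 49.97% of all tested genes were below. Among those below, CHEK2 and PLK1 were at -0.01 and had no stable sign. For CHEK1, CHEK2, ATR, ATM, CDC25A, CDC25B and PLK1, 7 in all, the 95% interval of the log2FC lay between -0.32 and 0.32.

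**Figure D1:**
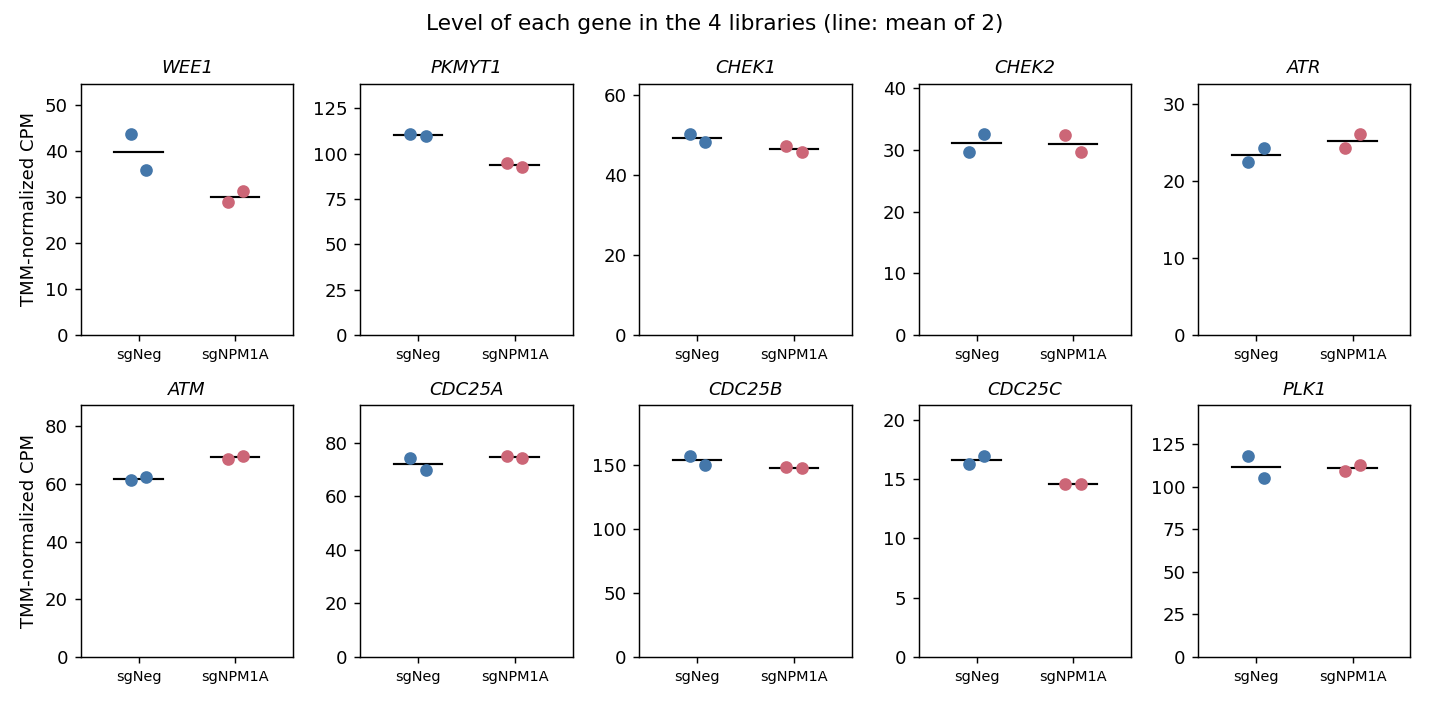
TMM-normalized CPM of each gene (vertical axes, linear from 0, a separate scale per gene) in the 2 sgNeg libraries (blue) and the 2 sgNPM1A libraries (red), with a line at the mean of 2. WEE1 went from 39.8 to 30.1 CPM and PKMYT1 from 110.2 to 93.8 CPM, whereas the points of CHEK2, CDC25A and PLK1 overlapped between the groups.

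WEE1, the nuclear kinase that phosphorylates CDK1, lies on chromosome 11 from 9573670 to 9589985 of GRCh38 (ENSG00000166483.10). It was counted 1112 and 930 times in the sgNeg libraries and 804 and 872 times in the sgNPM1A libraries, which was 43.7 and 35.9 CPM against 28.8 and 31.4 CPM. Both sgNPM1A libraries were below both sgNeg libraries, and the sgNeg libraries lay farther apart than the sgNPM1A libraries. The mean fell from 39.8 ± 5.54 to 30.1 ± 1.81 CPM (SD, n = 2 libraries each), a fold of 0.757 (95% interval 0.646 to 0.886). The log2FC was -0.40 (SE 0.10, adjusted p = 0.0149, edgeR), a size larger than that of 71.8% of all tested genes. The coefficient of variation between libraries was 13.9% with sgNeg and 6.01% with sgNPM1A, where counting alone gives 3.53% at the lowest count. The call rests on 2 libraries in particular: the log2FC was -0.25 (adjusted p = 0.0810, edgeR) without sgNeg replicate 1 and -0.34 (adjusted p = 0.0911) without sgNPM1A replicate 1. In bulk RNA, fewer cells with a transcript and less transcript per cell cannot be told apart, here and in all that follows.

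PKMYT1, the membrane-bound relative of WEE1 that also phosphorylates CDK1, lies on chromosome 16 from 2972808 to 2980446 (ENSG00000127564.16). It was counted 2820 and 2837 times with sgNeg and 2638 and 2579 times with sgNPM1A, which was 110.9 and 109.5 CPM against 94.6 and 92.9 CPM. The sgNPM1A libraries were below the sgNeg libraries, with little spread within either group. The mean was 110.2 ± 0.988 with sgNeg and 93.8 ± 1.24 CPM with sgNPM1A (SD, n = 2), a fold of 0.851 (95% interval 0.768 to 0.941), which was under the fold threshold, so that PKMYT1 was not called. Its log2FC was -0.23 (SE 0.07, adjusted p = 0.0239, edgeR), and lay between -0.24 and -0.22 in the fits without a single library. With same-numbered libraries paired in the fit, its adjusted p was 0.110 (edgeR). On the RefSeq positions given here the span of PKMYT1 shares 677 bases with PAQR4, on the opposite strand, and KREMEN2 lies 4428 bases away. The gene models of GENCODE reach farther, and their exons share 1228 bases with PAQR4 and 357 bases with KREMEN2, also on the opposite strand. Which annotation the reads were counted on is not given in the sources used here. PAQR4, from 26.9 and 24.0 to 19.2 and 19.8 CPM, was called lower (log2FC -0.38, adjusted p = 0.0134, edgeR), and KREMEN2 had a log2FC of -0.39 (adjusted p = 0.0575). Whether reads were counted by strand is not given either, so reads of PKMYT1 and of these neighbours cannot be told apart where their exons overlap.

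The CDC25 phosphatases, which remove the phosphates that WEE1 and PKMYT1 add, were not called in either direction. CDC25A, which acts on CDK2 at the start of S phase as well as on CDK1, lies on chromosome 3 from 48157146 to 48188417 (ENSG00000164045.11) and had 74.3 and 69.9 CPM with sgNeg and 75.1 and 74.1 CPM with sgNPM1A. The groups overlapped, and the log2FC was 0.05 (95% interval -0.11 to 0.21, adjusted p = 0.663, edgeR). CDC25B, which starts the activation of CDK1 at the centrosome, lies on chromosome 20 from 3786951 to 3806115 (ENSG00000101224.17) and was the most counted of the 10 genes, with 156.9 and 149.4 CPM with sgNeg and 148.2 and 147.05 CPM with sgNPM1A. Both sgNPM1A libraries were the lower ones, by less than the distance between the sgNeg libraries, and the log2FC was -0.05 (95% interval -0.20 to 0.09, adjusted p = 0.60, edgeR). CDC25C, which is activated by PLK1 and held in the cytoplasm by 14-3-3 proteins, lies on chromosome 5 from 138285265 to 138338355 (ENSG00000158402.18).

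CDC25C was the least counted of the 10 genes, with 414 and 440 counts with sgNeg and 407 and 405 counts with sgNPM1A, which was 16.3 and 17.0 CPM against 14.6 in each sgNPM1A library. The SD between the sgNPM1A libraries, 0.011 CPM, was far below the counting error, which at 405 counts is 4.97% of the level, and does not measure the precision of that mean. The sgNPM1A libraries lay below the sgNeg libraries, with a log2FC of -0.19 (SE 0.10, adjusted p = 0.200, edgeR). The 95% interval, -0.41 to 0.03, holds both no change and a fall of more than 20%, so that with these libraries a difference was not detectable. The span of CDC25C shares 799 bases with FAM53C on the opposite strand in RefSeq, and their exons share 293 bases in GENCODE (60.9 and 46.4 CPM with sgNeg, 49.2 and 50.8 CPM with sgNPM1A, adjusted p = 0.557).

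PLK1, the kinase that activates CDC25C and marks WEE1 for destruction, lies on chromosome 16 from 23678889 to 23690367 (ENSG00000166851.14). It had 118.3 and 105.0 CPM with sgNeg and 109.3 and 113.0 CPM with sgNPM1A, so that both sgNPM1A values fell between the sgNeg values. Its log2FC was -0.01 (95% interval -0.17 to 0.16, adjusted p = 0.964, edgeR), a size larger than that of 1.85% of all tested genes. Over the fits without a single library it lay between -0.09 and 0.08, so no direction can be given.

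ATR and ATM, the kinases at the head of the checkpoint pathways, had the largest log2FC values above 0 among the 10 genes, and neither was called. ATM lies on chromosome 11 from 108223067 to 108369102 (ENSG00000149311.17), and had 61.3 and 62.4 CPM with sgNeg and 68.7 and 69.8 CPM with sgNPM1A. Both sgNPM1A libraries were above both sgNeg libraries, by more than the spread within either group. The log2FC was 0.16 (SE 0.07, 95% interval 0.01 to 0.32), with an unadjusted p of 0.0432 and an adjusted p of 0.120 from edgeR, and it lay between 0.15 and 0.18 in the fits without a single library. ATR lies on chromosome 3 from 142449235 to 142578733 (ENSG00000175054.14), and had 22.4 and 24.2 CPM with sgNeg and 24.3 and 26.1 CPM with sgNPM1A. The highest sgNeg and the lowest sgNPM1A library nearly met, and the log2FC was 0.11 (95% interval -0.09 to 0.32, adjusted p = 0.427, edgeR).

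CHEK1 and CHEK2, the effector kinases under ATR and ATM, were not called either. CHEK1 lies on chromosome 11 from 125625136 to 125681124 (ENSG00000149554.12), and had 50.4 and 48.5 CPM with sgNeg and 47.4 and 45.7 CPM with sgNPM1A. The sgNPM1A libraries were below the sgNeg libraries by about the distance between libraries of a group, with a log2FC of -0.08 (95% interval -0.25 to 0.08, adjusted p = 0.464, edgeR). CHEK2 lies on chromosome 22 from 28687742 to 28741834 (ENSG00000183765.20), and had 29.7 and 32.6 CPM with sgNeg and 32.4 and 29.6 CPM with sgNPM1A. The groups overlapped almost wholly, the log2FC was -0.01 (95% interval -0.21 to 0.19, adjusted p = 0.972, edgeR), and with single libraries left out it took either sign, from -0.07 to 0.06.

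**Figure D2:**
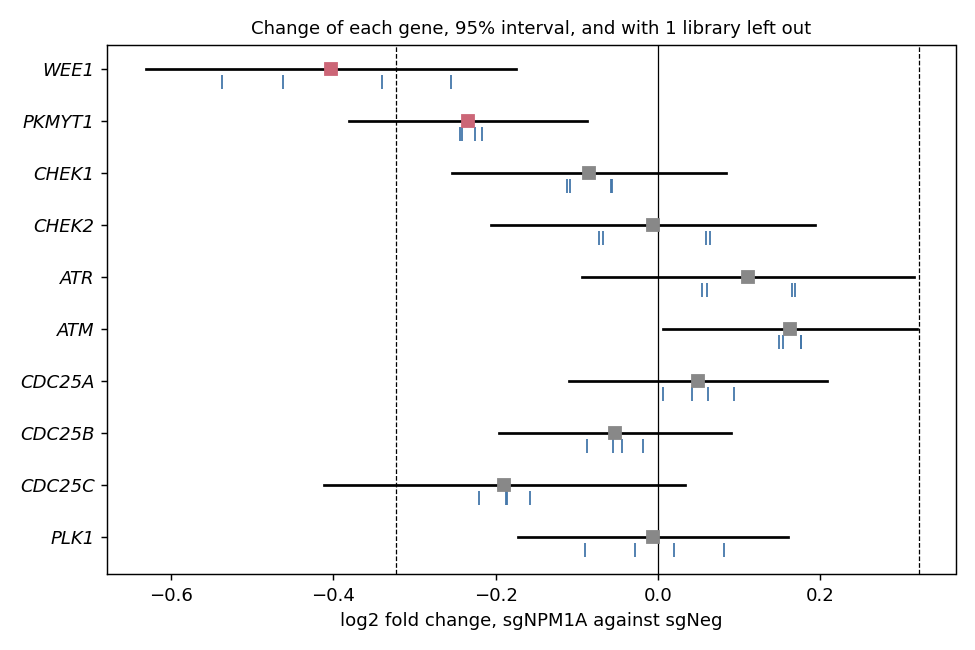
Log2 fold change of each gene with sgNPM1A against sgNeg (horizontal axis; square, with a black bar for the 95% interval), red where the adjusted p was under 0.05, with small blue ticks for the value without each library in turn and dashed lines at -0.32 and 0.32. WEE1 alone lies beyond a dashed line, at -0.40, with its 4 ticks spread from -0.54 to -0.25, whereas PKMYT1 at -0.23 lies inside.

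Levels of different genes were compared per kb of the canonical transcript, with CPM as the scale. In the sgNeg libraries the order ran from PKMYT1 (53.5 CPM per kb), PLK1 (51.7) and CDC25B (49.1) through CDC25A (18.8), CHEK2 (16.9), CHEK1 (11.97) and WEE1 (11.1) to CDC25C (7.95), ATM (4.79) and ATR (2.86). The libraries of PKMYT1 and PLK1, of PLK1 and CDC25B, and of CHEK1 and WEE1 overlapped in level, so these neighbours in the order were not separated by their spread. In the sgNPM1A libraries the leading genes were PLK1 (51.5 CPM per kb), CDC25B (47.3) and PKMYT1 (45.5), and no neighbours overlapped. WEE1, at 8.40 CPM per kb, was below CHEK1 at 11.3 in those libraries. The order depends in part on the length used. Per kb of the exons of all transcripts joined, a scale tried after the data were seen, CDC25B led in the sgNeg libraries (39.2 CPM per kb), before PLK1 (23.5), PKMYT1 (22.2) and CDC25A (17.4). On that scale CHEK1 (8.82) was above CHEK2 (6.93) and CDC25C (4.998) was above WEE1 (4.31), so no order is given for CHEK1 and CHEK2 or for WEE1 and CDC25C. On both scales PKMYT1 was above WEE1 in each of the 4 libraries. ATM and ATR, the longest canonical transcripts of the group with 12915 and 8158 bases, had the lowest levels per kb on both scales and in both groups.

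The balance between genes with opposed or like roles was followed as a ratio within each library, which does not depend on the scaling between libraries. The summed level per kb of the 3 CDC25 genes was 1.173 and 1.175 times that of WEE1 and PKMYT1 together in the sgNeg libraries, and 1.372 and 1.364 times in the sgNPM1A libraries. The difference in log2 ratio was 0.22 (means 0.23 ± 0.0019 with sgNeg and 0.45 ± 0.0063 with sgNPM1A, SD, n = 2). These SDs are below the SD that counting alone gives for the log2 ratio of a library, 0.0299 to 0.0309, and do not measure the precision of the means. The exact permutation test over 2 against 2 libraries, two-sided, gave p = 0.333, which is the smallest it allows. PKMYT1 makes up most of the kinase sum, so the overlap of its exons with other genes bears on this ratio as well.

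The log2 ratio of CDC25A to CDC25B was -1.38 and -1.40 with sgNeg and -1.28 and -1.29 with sgNPM1A, and that of CDC25C to CDC25B -2.69 and -2.56 against -2.77 and -2.76. In both the groups did not overlap, with differences of 0.10 and -0.14 and an exact permutation p of 0.333 each. The log2 ratio of WEE1 to PKMYT1 was -2.14 and -2.41 with sgNeg and -2.51 and -2.36 with sgNPM1A. Those of CHEK1 to CHEK2 and of ATR to ATM differed between the groups by -0.08 and -0.05. In these 3 ratios the groups overlapped, with an exact permutation p of 0.667 each. Over the 6 ratios compared, the Benjamini-Hochberg adjusted values were 0.666 and 0.667, and no p below 0.05 could have been reached with 2 libraries per group.

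**Figure D3:**
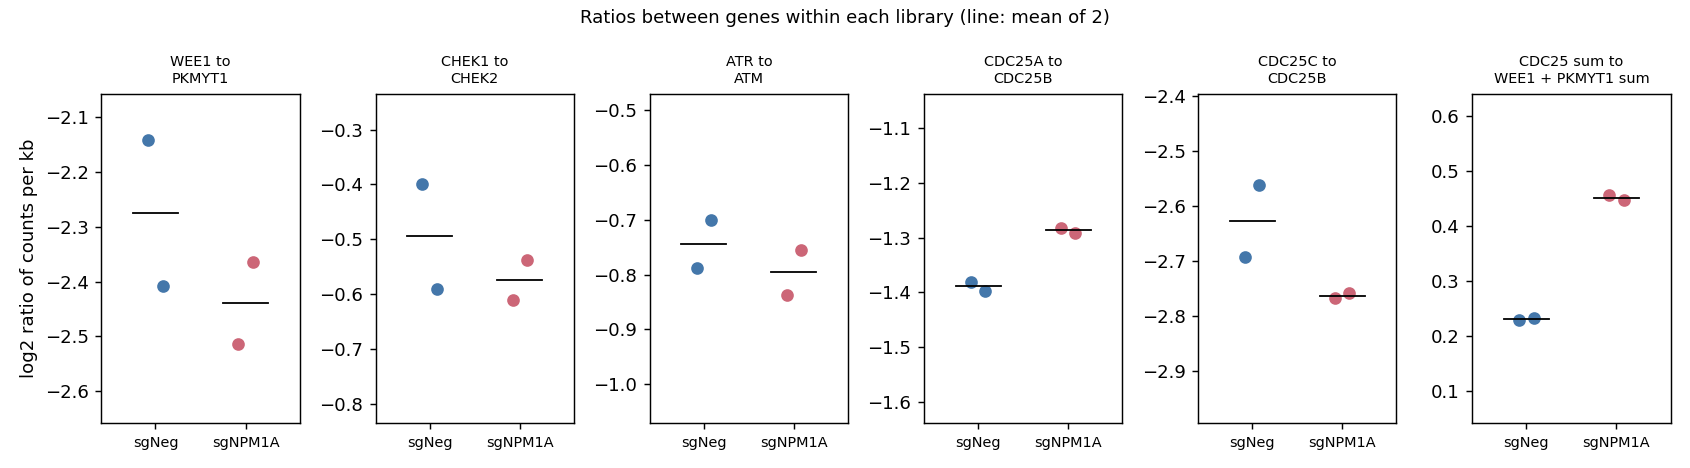
Log2 ratio of counts per kb between genes within each library (vertical axes, of equal span in each panel) for the 6 pairs, with sgNeg in blue, sgNPM1A in red and a line at the mean of 2. The ratio of the CDC25 sum to the sum of WEE1 and PKMYT1 went from 0.23 to 0.46 and 0.45, and the 3 ratios on the left overlapped between the groups.

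The wider circuit was described with 4 lists that hold 63 genes, of which 60 were tested. With mtNPM1 KO 6 of them were called higher, 4 lower and 50 in neither direction, with a median log2FC of 0.03. Counting both directions, 16.7% of the 60 were called. Among all tested genes 10.5% were called higher and another 10.3% lower, so the lists were not called more often than all tested genes.

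Of the 18 tested sensors and mediators of the ATR and ATM pathways, 0 were called higher and 2 lower, with a median log2FC of -0.06. The list mixes genes that act before and after these 2 kinases. DESeq2 and limma-trend gave the same counts, and at an unadjusted p under 0.05 edgeR had 1 higher and 5 lower. For this list and those below, the share of all tested genes at that cutoff was not computed. For lower genes it is at least the 13.1% found at an adjusted p under 0.05 at any fold (edgeR). How far above that it lies is not known, so no excess is read from these counts. CLSPN, or claspin, the adaptor through which ATR activates CHEK1, had 103.4 and 106.5 CPM with sgNeg and 88.8 and 77.3 CPM with sgNPM1A, and fell by 0.34 on the log2 scale (SE 0.08, adjusted p = 0.00956, edgeR). It was not called without sgNPM1A replicate 2 (adjusted p = 0.236) or without sgNeg replicate 2, where its log2FC was -0.3155. TP53BP1, which marks double-strand breaks and steers their repair, had 42.7 and 34.3 CPM with sgNeg and 27.9 and 31.7 CPM with sgNPM1A, a log2FC of -0.37 (SE 0.11, adjusted p = 0.0315, edgeR). In both genes the groups did not overlap, and for TP53BP1 the adjusted p was 0.188 without sgNeg replicate 1 and 0.195 without sgNPM1A replicate 1. RPA3 with 0.30 (adjusted p = 0.0315) and RAD9A with -0.25 (adjusted p = 0.0303), parts of the complexes that coat single-stranded DNA and clamp it, were within 0.32. ATRIP, the partner of ATR, had between 0 and 6 counts and was not tested. Its overlap with other genes was not examined, and how shared reads were counted is not given. The low count therefore need not mean a low level.

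Of the 13 genes of CDK1 and CDK2 with their cyclins, subunits and activating kinase, all tested, 3 were called higher and 2 lower, with a median of 0.04. CDK1, the target of WEE1 and PKMYT1, had 71.0 and 68.3 CPM with sgNeg and 71.4 and 72.1 CPM with sgNPM1A (log2FC 0.04, adjusted p = 0.703, edgeR), and its partner CCNB1 had a log2FC of 0.09 (adjusted p = 0.456). Neither passed the test. CDK2, which CDC25A also activates, had 62.2 and 64.4 CPM with sgNeg and 45.9 and 46.5 CPM with sgNPM1A, and fell by 0.45 (SE 0.07, adjusted p = 0.000974, edgeR). CCNE2, a cyclin that binds CDK2 as cells enter S phase, had 9.17 and 6.72 CPM with sgNeg and 4.99 and 4.57 CPM with sgNPM1A, a log2FC of -0.73 (adjusted p = 0.00924, edgeR; 0.0640 without sgNeg replicate 1). CCNE1, the other cyclin E, had a log2FC of -0.19 (adjusted p = 0.135).

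The genes of this list that rose were CCNA1, CKS2 and MNAT1. CCNA1, a cyclin A of the germline that is also found in myeloid leukemia cells, had 10 and 6 counts with sgNeg and 136 and 167 counts with sgNPM1A, a log2FC of 4.11 (SE 0.29, adjusted p = 2.11e-06, edgeR). The cyclin A of dividing cells, CCNA2, had between 79.8 and 98.5 CPM in the 4 libraries, and the groups overlapped (log2FC 0.09, adjusted p = 0.520). CKS2, a small subunit that binds CDK1 and CDK2, had 47.6 and 52.1 CPM with sgNeg and 69.1 and 72.0 CPM with sgNPM1A (log2FC 0.50, adjusted p = 0.000726). MNAT1, which assembles the kinase that activates CDK1 and CDK2, had 8.58 and 7.76 CPM with sgNeg and 12.9 and 11.2 CPM with sgNPM1A (log2FC 0.56, adjusted p = 0.00850, edgeR; 0.0743 without sgNPM1A replicate 1).

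Of the 14 genes of mitotic entry and the spindle around PLK1, 2 were called higher and 0 lower, with a median of 0.03, again with the same counts by DESeq2 and limma-trend and with 2 lower at an unadjusted p under 0.05 (edgeR). AURKA, the kinase that activates PLK1, had 79.9 and 69.6 CPM with sgNeg and 92.2 and 95.6 CPM with sgNPM1A, and rose by 0.33 (SE 0.08, adjusted p = 0.0116, edgeR). It was not called without sgNPM1A replicate 2 (adjusted p = 0.0987), nor, with a log2FC within 0.32, without sgNeg replicate 2 (0.23) or when scaled by library size only (0.29). BORA and TPX2, which assist AURKA, had log2FC values of 0.09 and -0.05 and did not pass the test. PLK2, a relative of PLK1 that responds to stress and acts on centrioles, had 2.05 and 1.97 CPM with sgNeg and 5.06 and 5.01 CPM with sgNPM1A (log2FC 1.32, SE 0.18, adjusted p = 0.000234, edgeR). FOXM1, the factor that drives transcription of G2 genes, with -0.22 (adjusted p = 0.0366), and MASTL, the kinase that restrains the phosphatase acting against CDK1, with -0.28 (adjusted p = 0.0467), were within 0.32 and not called.

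The last list holds ubiquitin ligase and 14-3-3 genes around WEE1 and the CDC25 phosphatases, with GSK3B, a kinase, and FBXO5, a ligase inhibitor. Of its 15 tested genes, 1 was called higher and 0 lower, with a median of -0.05. The counts were the same by DESeq2 and limma-trend, and 1 gene was lower at an unadjusted p under 0.05 (edgeR). CUL1, the scaffold of the SCF ubiquitin ligases, had 72.1 and 72.2 CPM with sgNeg and 144.2 and 160.9 CPM with sgNPM1A, and rose by 1.08 (SE 0.07, adjusted p = 1.85e-06, edgeR). The other core subunits SKP1 and RBX1 had log2FC values of 0.04 (adjusted p = 0.742) and 0.20 (adjusted p = 0.132) and did not pass the test. Of the substrate receptors that recognise WEE1 and CDC25A, BTRC had a log2FC of -0.06 (adjusted p = 0.737), and FBXW11 one of -0.31 (adjusted p = 0.0274), within 0.32 and not called.

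**Figure D4:**
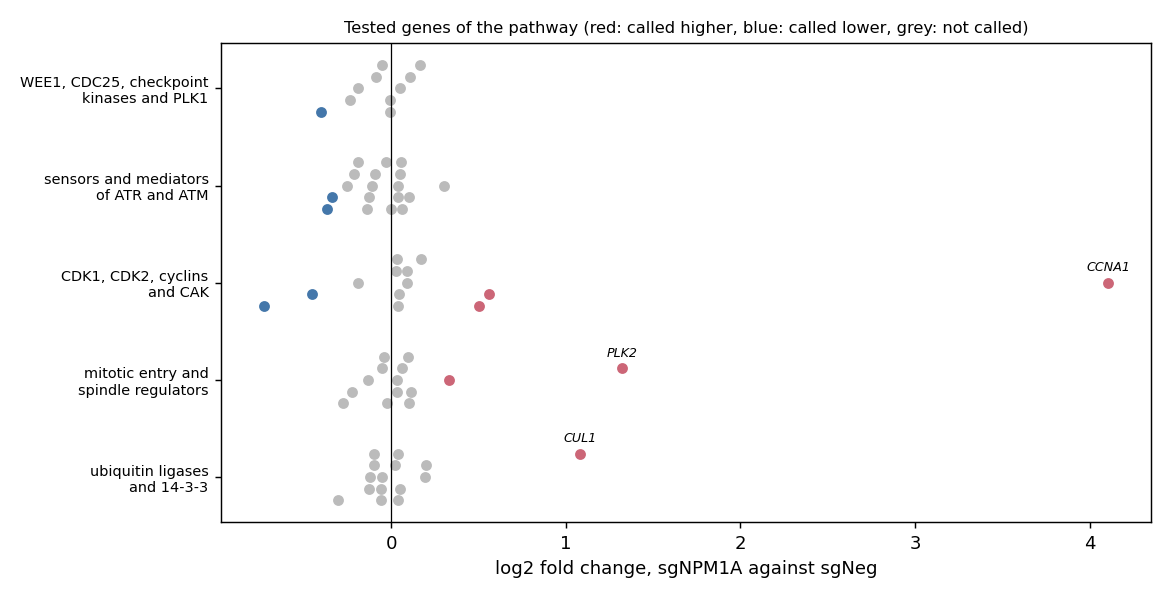
Log2 fold change with sgNPM1A against sgNeg (horizontal axis) of the 10 genes (top row) and of the 60 tested genes of the 4 lists (rows below), with genes called higher in red, genes called lower in blue and genes not called in grey; vertical position within a row only separates the points. Most points lie near 0, and CCNA1 at 4.11, PLK2 at 1.32 and CUL1 at 1.08 stand farthest out.

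Several of the 10 genes have a neighbour that starts close by or whose gene model meets theirs. NPAT, a coactivator of histone genes, starts 429 bases from ATM on the opposite strand, on the RefSeq positions. It had 16.1 and 13.9 CPM with sgNeg and 11.5 and 13.5 CPM with sgNPM1A, a log2FC of -0.26 (adjusted p = 0.148, edgeR) where ATM had 0.16, and neither was called. CENPB, a centromere protein, starts 211 bases from CDC25B on the opposite strand and had a log2FC of -0.10 (adjusted p = 0.269). HSCB, of iron-sulfur cluster assembly, starts 198 bases from CHEK2 on the opposite strand and had a log2FC of -0.25 (adjusted p = 0.274). In the longer GENCODE models HSCB shares 293 exon bases with CHEK2. STT3A lies 2045 bases before CHEK1 in RefSeq and shares 53 exon bases with it in GENCODE (log2FC -0.04, adjusted p = 0.720). C11orf65, at 6 to 13 counts, overlaps the span of ATM in RefSeq and shares 124 exon bases with it in GENCODE (log2FC -0.32, adjusted p = 0.676). Other exon overlaps in GENCODE bear on ATR, PLK1, WEE1 and ATM, and reads may be shared there too. ATR shares 2048 bases with the pseudogene EIF2AK1P1 on the opposite strand and 497 with a long noncoding RNA on its own strand. PLK1 shares 553 with a long noncoding RNA and 58 with ERN2, both opposite. WEE1 shares 104 with the snoRNA snoU13 on its own strand, and ATM 102 with a Y RNA on the opposite strand. Apart from PAQR4 beside PKMYT1, none of the neighbours that were tested was called by edgeR.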

How the data were processed

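OCI-AML3 RNA was sequenced in 2 sgNeg and 2 sgNPM1A libraries, which the study calls biological replicates; separate cultures are not stated, so p-values measure only the spread between these libraries, which may be technical. Per the labels and the paper, reads were mapped to hg38 with STAR, and the authors deposited raw counts per Ensembl gene, without normalization. The counting program, its strand setting and the annotation are not given in the sources used here. The authors' spike-ins have 0 rows in the table.

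Groups were compared with edgeR 4.0.16 in R 4.3.3 (filterByExpr, minimum count 10, TMM, robust quasi-likelihood F test, two-sided), Benjamini-Hochberg adjusted over all tested genes. Genes were called where the adjusted p was under 0.05 and the log2 fold change beyond 0.32 in either direction, the study's fold threshold. Intervals are 95% from the quasi-likelihood standard error. Alternatives used DESeq2 1.42.0, limma 3.58.1, other scalings, filters and fold thresholds, blocks and single libraries left out. The methods were checked on simulated data, with changes larger than that of WEE1 and the same spread for all genes. That check does not cover calls near the fold threshold. Intervals and counting limits cover counting error and these libraries only.

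The 10 genes and the lists were chosen with earlier results of these data known. Named are the 10 genes, NPM1, up to 3 called genes per list and direction with the smallest adjusted p, and genes sharing a start (within 2 kb on the opposite strand) or exons. Other genes of the lists, such as CDK1 or FOXM1, were named after their values were seen. Positions, distances and windows are RefSeq, GRCh38.p14; lengths and exon overlaps are from GENCODE, whose models differ from these.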

Additional observations from a re-analysis of the deposited data

How the results depend on the processing

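With 2 libraries per group the p-values rest on variance shared between genes, and a fit without 1 library takes the lone library to vary like the other group. The same 4 libraries were refitted with RLE size factors, library size only, other low count filters, DESeq2, limma-trend and both blocks. WEE1 was the gene of the 10 called lower in 8 of 8 of these fits, and 0 were called higher. Its log2 fold changes ran from -0.44 to -0.39 and its adjusted p from 6.01e-08 to 0.0165 (edgeR, DESeq2 and limma). The lowest came from the crossed block, chosen after seeing the data, and the next was 0.000168 without the low count filter (edgeR). Leaving out single libraries left between 0 and 1 of the 10 called lower. With no fold threshold 2 of the 10 were lower and 0 higher, 8 pathway genes were lower and 7 higher, and 2057 genes in all were lower and 2030 higher. With a threshold of 2-fold, 0 of the 10 and 0 pathway genes were lower, 3 pathway genes were higher, and 498 genes in all were higher and 502 lower. The log2 fold changes of 2 genes took either sign: CHEK2 lay between -0.0730 and 0.0646 without single libraries, and PLK1 between -0.0895 and 0.0813, and at 0.0004313 with limma-trend. The log2 ratio of the CDC25 sum to the kinase sum differed by 0.25 without division by length and by 0.23 with the exons of all transcripts joined, an alternative chosen after seeing the data; only the weights of the genes in the sums change there. Among all settings tried for single named genes, 275 of 287 fits kept the call, including its fold threshold, 11 lost it and 1, NPM1 with limma-trend, gained it. Many of these genes were not called in the main fit, and for them a kept call means only that they stayed uncalled. The 11 losses fell on WEE1, CLSPN, TP53BP1, MNAT1, CCNE2 and AURKA, whereas CDK2, CCNA1, CKS2, PLK2 and CUL1 kept their call wherever they were tested. By the adjusted p alone 15 fits lost significance in the same direction and 2 gained it. The cause of these changes was not tested.

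The labels number the libraries 1 and 2 in each group, and nothing else pairs them: deviations of same-numbered libraries correlated at -0.20 over 15718 genes and at -0.53 over the 8856 genes above 10 CPM, which include the 10. With the replicate block 1 of the 10 genes, 6 pathway genes higher and 4 lower, and in all 1637 genes higher and 1604 lower were called. The adjusted p of PKMYT1 (edgeR) was 0.110 there, the highest over the 8 fits, and that of NPM1 was 0.156. The lowest for PKMYT1, 6.97e-05, came from the fit with the numbers crossed. With the numbers crossed, chosen after seeing the data, 1955 genes were higher and 1918 lower, and again 1 of the 10.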
